A study of Mus musculus with 12 samples.

Results

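The methylome of the mouse bimaternal (BM) embryo at E15.5, a whole embryo whose 2 genomes both come from mothers, was set against the parthenogenetic haploid embryonic stem cell (phESC) at early passage, a stem cell with a single genome of maternal origin. A BM embryo is made by placing the genome of a phESC in an oocyte. Members are the autosomal cytosines (chromosomes 1 to 19) with a methylation value in both libraries. They number 3972487 of the 7811806 autosomal cytosines the deposited file lists, or 50.9%. The BM embryo is labelled DMR-KO, a deletion of differentially methylated regions, and the labels do not say which regions are deleted. The phESC library is labelled WT, so it does not carry those deletions and is not labelled as the line that made the embryo. The other libraries used beside them are the wild-type (WT) E15.5 embryo, the bipaternal (BP, 2 genomes from fathers, DMR-KO) E15.5 embryo, the diploid ESC and the androgenetic haploid ESC (ahESC, paternal genome), both early passage and WT, the late-passage phESC and diploid ESC (WT), and the BM brains at E19.5 and in the adult (DMR-KO). With 1 library in each group, values have no replicate error and no difference was tested. Differences between the pair combine tissue, ploidy, the deletions and the oocyte genome, which cannot be told apart here.

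DNA methylation in mammals sits mainly on the cytosine of CpG dinucleotides and is copied at each division. Early embryos lose most of it and regain it around implantation, while CpG islands, the CpG-rich sequence around many gene starts, stay largely free of it. Imprinted control regions are an exception: they carry methylation on the maternal or on the paternal copy alone, set in the oocyte or in sperm, and they direct the expression of neighbouring genes from 1 parental copy. A region methylated on 1 of its copies reads as an intermediate level in a whole embryo. Haploid ESCs are known to lose methylation in culture, at imprints too.

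The assay was reduced representation bisulfite sequencing (RRBS), in which MspI fragments are read, and CpG-rich sequence is favoured. Values are percentages from 0 to 100 per cytosine, and the number of reads behind each is unknown. Because the file lists cytosines of CG and of GC with no sequence context, the main measure keeps cytosines that reached 20% in any of the 10 remaining libraries. There were 735199 such cytosines, and 98.7% of those with known context were CpG. This choice leaves out sequence that is unmethylated everywhere, so genome and tile values are also given over all CpGs of known context outside CCGG, the MspI site itself, of which 19.46% reached 20%, and promoter values over all CpGs of known context. Imprinted windows are given only over cytosines that reached 20% in any library, the pair included. CCGG sites made up 15.47% of CpG cytosines with a value in the BM embryo and 15.39% in the early phESC library, but 2.46% in the late phESC library. Values on chromosome Y, which maternal genomes lack, numbered 51 in the BM embryo and 97 in early phESCs, against 1470 in the WT embryo. They numbered 106 in the BM E19.5 brain, but 654 in the late phESC library and 890 in the BM adult brain. The cause of these counts was not tested. A difference of at least 25 percentage points, called points below, counts as higher or lower, and percentages below are methylation levels unless they are named as shares. All positions are in build mm9.

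10 promoters carry the main contrasts and are printed first, as the 300 bases from 250 before to 50 after the RefSeq start (sequence from RefSeq, GRCm38.p6, 5′ to 3′ in the direction of the gene), with each CpG in capitals. The imprinted set shows starts inside windows that were near 0 in phESCs and intermediate in the BM embryo. They are Plagl1 (chr10:12810388-12810687, plus strand), a zinc finger gene expressed from the paternal copy, Mcts2 (chr2:152512634-152512933, plus strand), a retrogene expressed from the paternal copy, Nnat (chr2:157385564-157385863, plus strand), which encodes neuronatin, and the Nesp start of Gnas (chr2:174109571-174109870, plus strand), which gains its imprint after fertilisation.
Plagl1: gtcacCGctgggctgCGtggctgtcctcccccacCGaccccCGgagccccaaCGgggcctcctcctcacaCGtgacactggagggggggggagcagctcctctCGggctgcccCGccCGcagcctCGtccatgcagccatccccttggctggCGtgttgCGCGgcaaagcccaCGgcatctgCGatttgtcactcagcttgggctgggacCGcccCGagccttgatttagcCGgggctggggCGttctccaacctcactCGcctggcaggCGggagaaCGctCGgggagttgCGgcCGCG
Mcts2: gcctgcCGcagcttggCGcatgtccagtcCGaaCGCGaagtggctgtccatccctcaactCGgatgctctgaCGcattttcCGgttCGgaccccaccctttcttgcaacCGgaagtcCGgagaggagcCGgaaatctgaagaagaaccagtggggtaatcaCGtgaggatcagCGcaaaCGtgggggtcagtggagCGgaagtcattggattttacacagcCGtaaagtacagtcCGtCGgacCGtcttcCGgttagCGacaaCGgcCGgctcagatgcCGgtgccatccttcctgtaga
Nnat: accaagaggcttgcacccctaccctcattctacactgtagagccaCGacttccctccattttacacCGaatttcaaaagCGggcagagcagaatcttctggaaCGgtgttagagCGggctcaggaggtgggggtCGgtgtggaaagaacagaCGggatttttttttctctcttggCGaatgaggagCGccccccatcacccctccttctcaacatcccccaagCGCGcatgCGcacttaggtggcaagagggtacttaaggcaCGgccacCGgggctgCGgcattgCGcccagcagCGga
Gnas: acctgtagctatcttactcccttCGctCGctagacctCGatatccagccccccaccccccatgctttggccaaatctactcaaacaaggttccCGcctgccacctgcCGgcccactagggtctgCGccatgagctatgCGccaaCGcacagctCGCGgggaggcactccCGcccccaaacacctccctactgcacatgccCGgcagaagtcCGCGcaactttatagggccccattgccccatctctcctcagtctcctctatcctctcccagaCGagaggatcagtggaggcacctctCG
The germline set shows CpG-rich promoters that were nearly filled in the embryo. They are Ddx4 (chr13:113442469-113442768, minus strand), an RNA helicase of germ cells, Slc25a31 (chr3:40512543-40512842, plus strand), an ADP/ATP carrier of the testis, and Hormad1 (chr3:95363349-95363648, plus strand), a protein of meiotic chromosome axes.
Ddx4: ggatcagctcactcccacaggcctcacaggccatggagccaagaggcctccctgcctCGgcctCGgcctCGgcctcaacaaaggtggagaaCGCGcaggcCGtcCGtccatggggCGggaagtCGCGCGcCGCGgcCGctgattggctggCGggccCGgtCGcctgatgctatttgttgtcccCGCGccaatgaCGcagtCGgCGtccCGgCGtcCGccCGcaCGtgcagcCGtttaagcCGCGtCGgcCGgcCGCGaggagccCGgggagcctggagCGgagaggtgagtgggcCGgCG
Slc25a31: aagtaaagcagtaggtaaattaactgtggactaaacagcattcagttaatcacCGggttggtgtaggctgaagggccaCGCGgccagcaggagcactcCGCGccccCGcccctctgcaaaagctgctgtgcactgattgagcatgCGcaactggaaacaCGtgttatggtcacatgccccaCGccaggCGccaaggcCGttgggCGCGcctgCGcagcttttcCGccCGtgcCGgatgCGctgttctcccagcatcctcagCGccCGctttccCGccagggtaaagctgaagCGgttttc
Hormad1: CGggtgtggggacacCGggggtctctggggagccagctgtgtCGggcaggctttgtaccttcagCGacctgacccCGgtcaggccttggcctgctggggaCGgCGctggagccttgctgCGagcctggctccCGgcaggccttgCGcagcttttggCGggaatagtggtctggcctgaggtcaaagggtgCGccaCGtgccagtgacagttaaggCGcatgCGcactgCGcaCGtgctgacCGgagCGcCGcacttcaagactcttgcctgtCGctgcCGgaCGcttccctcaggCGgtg
The last set shows wide differences each way. Jade1 (chr3:41359406-41359705, plus strand), a subunit of a histone acetyltransferase complex, was among the highest above phESCs, and Fv1 (chr4:147242838-147243137, plus strand), a retrovirus restriction gene, and Abcc9 (chr6:142650745-142651044, minus strand), a subunit of a potassium channel, were below them.
Jade1: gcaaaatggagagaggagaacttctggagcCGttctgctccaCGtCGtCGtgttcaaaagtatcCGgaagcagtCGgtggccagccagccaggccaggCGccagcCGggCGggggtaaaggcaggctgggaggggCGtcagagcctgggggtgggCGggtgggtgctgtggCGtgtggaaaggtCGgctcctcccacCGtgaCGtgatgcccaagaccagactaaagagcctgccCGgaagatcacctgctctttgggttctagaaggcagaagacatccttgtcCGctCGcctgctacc
Fv1: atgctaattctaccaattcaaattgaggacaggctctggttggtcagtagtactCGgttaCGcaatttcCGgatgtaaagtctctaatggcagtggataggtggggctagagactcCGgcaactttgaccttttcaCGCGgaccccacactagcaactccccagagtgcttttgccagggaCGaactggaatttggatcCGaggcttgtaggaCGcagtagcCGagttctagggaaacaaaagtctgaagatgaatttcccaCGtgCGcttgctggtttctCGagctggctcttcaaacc
Abcc9: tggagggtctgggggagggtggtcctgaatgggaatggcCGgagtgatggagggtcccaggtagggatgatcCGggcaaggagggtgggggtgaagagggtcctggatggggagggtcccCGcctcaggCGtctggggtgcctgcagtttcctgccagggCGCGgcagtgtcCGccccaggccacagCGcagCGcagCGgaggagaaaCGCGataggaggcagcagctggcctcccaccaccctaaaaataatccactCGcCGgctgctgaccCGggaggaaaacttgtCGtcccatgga

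Within these promoters most CpG cytosines differed the same way. At Plagl1, 27 cytosines ran from 16.7% to 71.5% in the BM embryo (median 58.3%) and from 0 to 13.9% in phESCs (median 0.495%). At Mcts2, 20 cytosines ran from 46.0% to 70.4% in the BM embryo and from 0 to 4.92% in phESCs. The lowest cytosine of the embryo stood above the highest of the stem cell at both genes. Nnat had 58.2% to 62.0% over 7 cytosines in the BM embryo and 0 to 7.88% in phESCs, and the Nesp start had 55.1% to 71.3% over 14 cytosines in the BM embryo and 0 to 7.66% in phESCs. Medians over cytosines were intermediate at all 4 imprinted starts, with a lowest cytosine of 16.7% at Plagl1, while the germline promoters went higher. Ddx4 had 55% to 98.7% over 50 cytosines in the BM embryo and 0 to 27.4% in phESCs. Slc25a31 had 76.0% to 100% over 33 cytosines in the BM embryo and 2.13% to 49.0% in phESCs, and Hormad1 had 55.3% to 95.7% over 30 cytosines in the BM embryo and 2.70% to 43.8% in phESCs. Jade1 showed the same separation at the extremes, with 88.9% to 100% over 14 cytosines in the BM embryo and 0 to 8.83% in phESCs. At Fv1, 12 cytosines had a median of 0% and a highest value of 19.05% in the BM embryo, against a median of 47.3% and a range of 0 to 65.6% in phESCs. At Abcc9, 6 cytosines had 0 to 7.14% in the BM embryo and 34.9% to 58.7% in phESCs.

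Over the genome the BM embryo carried more methylation than the phESC at most sequence that was methylated in other libraries. Cytosines that reached 20% elsewhere averaged 68.7% in the BM embryo and 36.9% in early phESCs, a difference of 31.8 points, with medians of 83.3% in the embryo and 37.6% in the stem cell. Of these cytosines 60.5% were higher in the BM embryo by at least 25 points and 0.694% were lower. Over all 714930 CpGs of known context outside CCGG, most of which are unmethylated in both, the means were 14.1% in the BM embryo and 6.26% in phESCs. The autosomes behaved alike: the difference ran from 29.98 points on chromosome 19 to 34.96 points on chromosome 10. Late phESCs were lower still, with 25.8% against 66.9% in the BM embryo over 298175 shared cytosines.

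The autosomes were divided into 1 kb tiles with at least 5 such cytosines, giving 55059 tiles. Of these, 36029 (65.4%) were higher in the BM embryo and 140 (0.254%) lower. The median tile was higher by 32.5 points, and the mean tile had 69.9% in the BM embryo and 37.7% in phESCs. The whole distribution differed in shape. In the 46183 tiles also measured in 4 further libraries, 28.3% of tiles stood at 90% or more in the BM embryo and 0.0065% in phESCs, whereas 19.8% of tiles stood between 40% and 50% in phESCs and 3.65% in the BM embryo. Over CpGs of known context outside CCGG the share of higher tiles was 29.4%.

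**Figure D1:**
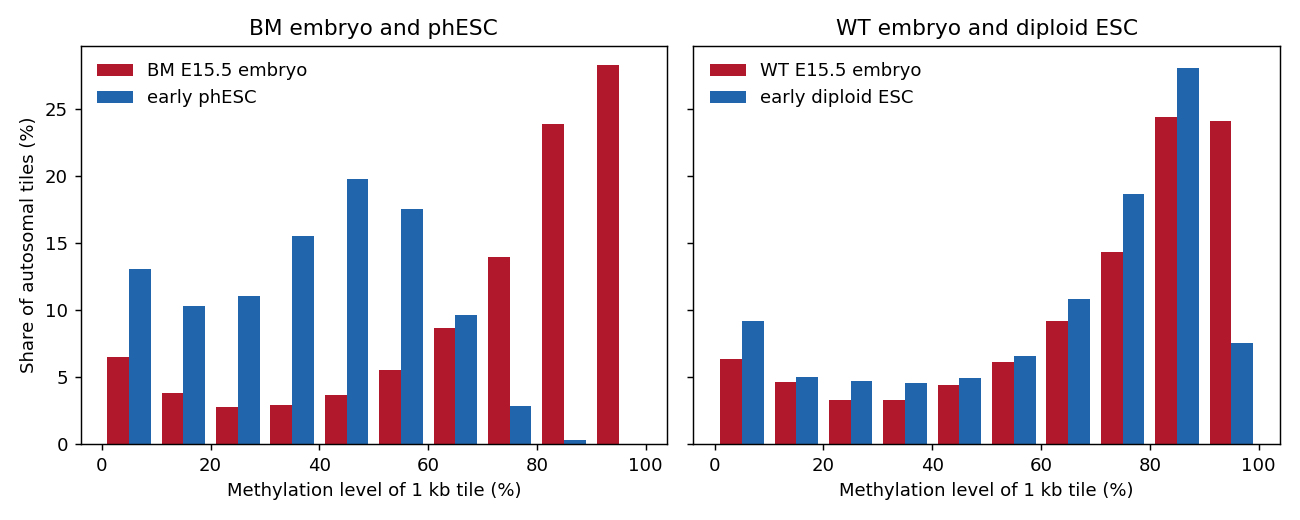
Share of the 46183 autosomal 1 kb tiles (vertical axis, %) at each methylation level (horizontal axis, %, in steps of 10 points), for the BM embryo and early phESC (left) and the WT embryo and early diploid ESC (right), 1 library each. Both embryos peak above 80%, and the phESC peaks between 40% and 50%, while the diploid ESC peaks between 80% and 90%.

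The same tiles were set beside those of the other embryo and stem cell pairs. The BM embryo minus phESC had 30916 higher tiles (66.9%) and 106 lower (0.23%). The WT embryo minus diploid ESC had 6812 higher (14.8%) and 2435 lower (5.27%), and the BP embryo minus ahESC had 7522 higher (16.3%) and 1405 lower (3.04%). The embryos had close mean levels, at 70.5% in BM, 70.3% in BP and 68.6% in WT. The stem cells did not, at 37.6% in phESCs, 60.4% in ahESCs and 61.8% in diploid ESCs. Early phESCs were lower than diploid ESCs in 25486 tiles (55.2%). Of the tiles higher in the BM embryo than in phESCs, 99.4% lay within 25 points of the WT embryo, with means of 82.8% in BM, 80.7% in WT and 38.5% in phESCs. On the 627242 single cytosines with a value in all 6 libraries the differences were 32.2 points for BM minus phESC, 7.20 for WT minus diploid ESC and 10.1 for BP minus ahESC. The WT, BP, diploid ESC and ahESC libraries could keep a cytosine by their own level, and the BM embryo and phESC could not. The pairs are therefore not on equal terms. Over 602716 CpGs of known context outside CCGG with a value in all 6, the same differences were 8.35, 3.25 and 3.28 points. Stem cell means there were 6.50% in phESCs, 11.4% in diploid ESCs and 11.2% in ahESCs.

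How much higher the embryo stood depended on where the stem cell stood. Tiles at 40% to 50% in phESCs had 79.2% in the BM embryo, and 78.1% of them were higher by 25 points. Tiles above 60% in phESCs had 89.6% in the BM embryo and 46.0% of them were higher. Tiles under 10% in phESCs, 7441 in number, split: their mean in the BM embryo was 30.5%, and 36.8% of them were higher. These bins use the phESC value that also enters the difference, so they describe the tiles only. By cytosine, of 489355 at 20% to 80% in phESCs, 70.2% stood at 80% or more in the BM embryo and 2.08% under 20%. Of 226353 under 20% in phESCs, 46.5% were under 20% in the BM embryo too and 19.8% at 80% or more. Of the 19491 at 80% or more in phESCs, 93.5% were at that level in the BM embryo.

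By place in genes, the difference was widest in exons and smallest at gene starts. Cytosines in exons outside promoters averaged 73.6% in the BM embryo and 34.1% in phESCs, a difference of 39.5 points. Those between the placed exons of a gene averaged 71.4% in the BM embryo and 39.99% in phESCs, and those elsewhere 75.3% in the BM embryo and 42.9% in phESCs. In promoters, 1000 bp before to 500 bp after a start, cytosines that reached 20% averaged 39.7% in the BM embryo and 18.9% in phESCs. Over all CpGs of known context outside CCGG, promoters averaged 4.51% in the BM embryo and 2.20% in phESCs, while exons averaged 49.8% in the BM embryo and 21.3% in phESCs. Most promoter CpGs were unmethylated in both, and known context covers promoters and exons only. Along the gene, the cytosines that reached 20% dipped in the 250 bp before the start to 35.6% in the BM embryo and 17.2% in phESCs, and stood at 71.3% in the embryo and 36.1% in the stem cell 5 kb upstream.

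**Figure D2:**
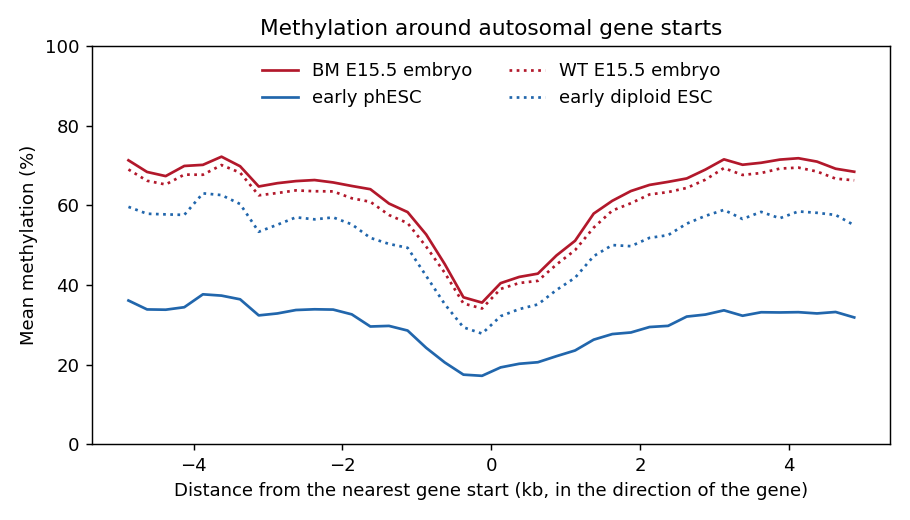
Mean methylation (vertical axis, %) of cytosines that reached 20% outside the pair, by distance from the nearest gene start (horizontal axis, kb, in bins of 250 bp), with 1 line per library. The BM embryo runs with the WT embryo at every distance, and the phESC runs below the diploid ESC, with all lines lowest at the start.

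The 300-base RefSeq promoters, measured over CpGs of known context with at least 6 cytosines, ordered this by CpG number. Of 9525 such promoters 231 (2.43%) were higher in the BM embryo and 6 (0.063%) lower. The 139 promoters with 4 to 7 CpGs averaged 44.7% in the BM embryo and 27.0% in phESCs, and 39.6% were higher. The 765 with 12 to 15 CpGs averaged 8.79% in the BM embryo and 4.98% in phESCs, and 6.67% were higher. The 5614 with 24 or more CpGs averaged 1.63% in the BM embryo and 1.30% in phESCs, and 0.392% were higher. CpG-dense starts stayed near 0 in both, so the germline and imprinted starts printed above are exceptions among promoters of their density.

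**Figure D3:**
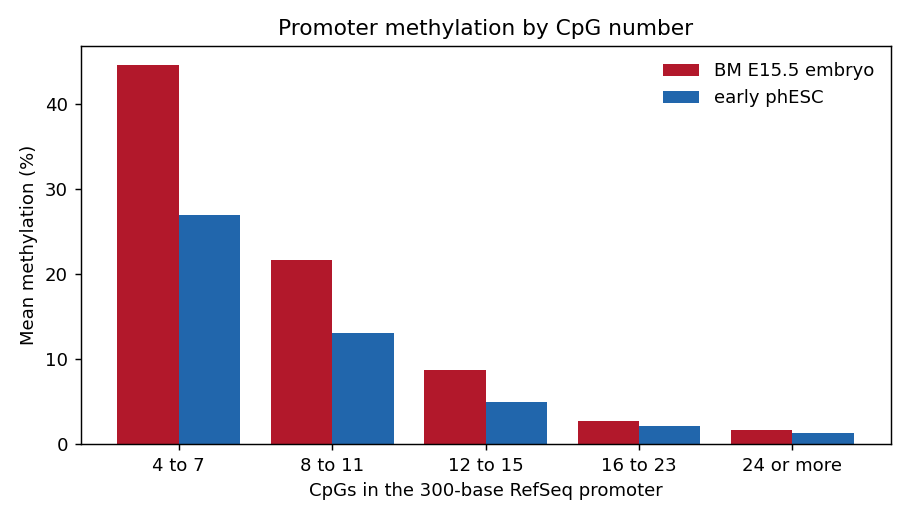
Mean methylation (vertical axis, %) of 300-base RefSeq promoters by the number of CpGs they hold (horizontal axis), for the BM embryo and early phESC. Both fall with CpG number, from 44.7% in the embryo and 27.0% in the stem cell at 4 to 7 CpGs to 1.63% in the embryo and 1.30% in the stem cell at 24 or more.

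Imprints of the maternal kind were present in the BM embryo and nearly absent in the phESC. All 20 windows over regions methylated on the maternal copy were measured in both, and all 20 were higher in the BM embryo by at least 25 points, beside 65.4% of tiles over the autosomes. The WT embryo stood between 25% and 75% in 19 of them. Over those 19 the mean was 60.2% in the BM embryo (SD over windows 6.58, range 41.3% to 72.7%) and 3.61% in phESCs (SD 5.36, range 0.997% to 24.9%), with 54.4% in the WT embryo and 8.81% in the BP embryo. The lowest window of the embryo lay 16.4 points above the highest of the phESC. Of 901 cytosines with a value in both over the 20 windows, 879 (97.6%) were higher by at least 25 points. Window cytosines could be kept for their level in the BM embryo itself, and tile cytosines could not. The shares of windows and of tiles are therefore not on equal terms.

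Paternally expressed genes whose start lies in a maternally methylated window include Peg3, a zinc finger gene that affects growth and maternal behaviour, with 63.9% in the BM embryo and 2.80% in phESCs over 8 cytosines (WT embryo 60.1%, BP embryo 1.86%). Peg10-Sgce, a retrotransposon-derived gene needed for the placenta and its neighbour, had 60.9% in the BM embryo and 1.47% in phESCs (WT embryo 41.1%). Mest, which encodes a hydrolase-like protein, had 57.4% in the BM embryo and 3.91% in phESCs. Plagl1 had 53.5% in the BM embryo and 1.32% in phESCs, and Mcts2-H13 had 60.3% in the BM embryo and 0.997% in phESCs. Nnat had 62.5% in the BM embryo and 1.51% in phESCs, Zrsr1-Commd1 had 61.04% in the BM embryo and 1.12% in phESCs, and Nap1l5-Herc3 had 68.3% in the BM embryo and 2.22% in phESCs. These windows were alike in the stem cell, all within 4 points of 0, and in the BP embryo, where none of them passed 4%. Impact stood at 56.3% in the BM embryo and 1.71% in phESCs (WT embryo 28.0%), and Inpp5f at 57.5% in the BM embryo and 3.39% in phESCs.

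Windows that govern clusters or non-coding RNAs followed. Kcnq1ot1, whose RNA silences genes in its cluster in cis, had 60.7% in the BM embryo and 1.22% in phESCs, while the WT embryo had 25.3%. Igf2r-Airn, with a similar antisense RNA, had 64.2% in the BM embryo and 1.18% in phESCs. Grb10, an adaptor of growth factor signalling, had 56.4% over 148 cytosines in the BM embryo and 3.33% over 134 in phESCs. At the Gnas cluster, which encodes a G protein subunit, Nespas-Gnasxl had 59.2% in the BM embryo and 6.40% in phESCs, and Gnas-1A had 60.7% in the BM embryo and 4.12% in phESCs. The BP embryo was not near 0 at every such window: Gnas-1A had 23.8% and Peg13-Trappc9 29.2% there, the second beside 58.4% in the BM embryo and 1.45% in phESCs. Slc38a4, an amino acid transporter of the placenta and liver, was the highest among the 19 with 72.7% in the BM embryo and 4.30% in phESCs, against 39.8% in the WT embryo.

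A few windows stood apart. Snrpn-Snurf, the control region of the Prader-Willi and Angelman cluster, was the lowest in the BM embryo, with 41.3% over 22 cytosines against 1.24% over 25 in phESCs and 65.7% in the WT embryo, and 15 of its 22 cytosines were higher by 25 points. Cdh15, a cadherin gene with an intragenic window, was the highest in phESCs, with 68.5% in the BM embryo and 24.9% in phESCs, and it was not low in the BP embryo (75.6%) or in ahESCs (82.5%). Gpr1-Zdbf2, whose maternal methylation is transient in the early embryo, had 95.1% in the BM embryo and 0.888% in phESCs, and was as high in the WT (94.1%) and BP (85.5%) embryos, so it did not read as imprinted at this stage. In early diploid ESCs, 2 windows were also empty, Mcts2-H13 at 0.776% and Slc38a4 at 0.852%, with Gnas-1A at 10.004%.

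**Figure D4:**
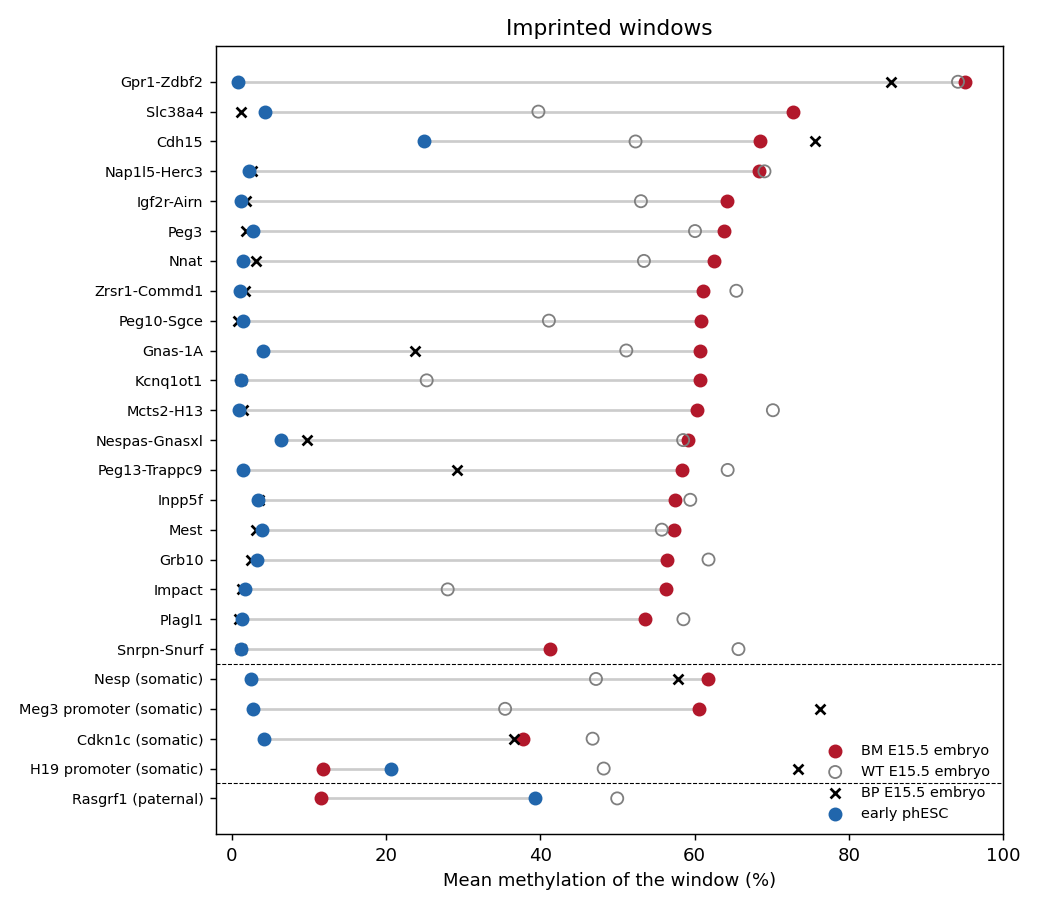
Mean methylation (horizontal axis, %) of each measured imprinted window (rows; maternal windows on top, then somatic windows and Rasgrf1) in the BM, WT and BP E15.5 embryos and in early phESCs, 1 library each, with a line joining the BM embryo and the phESC. The 19 maternal windows below Gpr1-Zdbf2 lie between 41.3% and 72.7% in the BM embryo and, apart from Cdh15, under 7% in phESCs.

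Among sequence that was low in phESCs, the maternal windows differed in level from the rest. Of the 7441 tiles under 10% in phESCs, 31 lie in maternal windows, and 29 of these were at 40% to 75% in the BM embryo and none under 20%. Their mean was 60.2% in the BM embryo, 55.9% in the WT embryo and 8.25% in the BP embryo. The other 7410 tiles had a median of 15.2% in the BM embryo, with 55.3% under 20%, 17.5% at 40% to 75% and 13.2% over 75%, and their means were 30.4% in BM, 29.4% in WT and 29.6% in BP. Low tiles outside the windows had like means in all 3 embryos. The windows were listed for being imprinted, and no test of the difference was made.

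Windows of the paternal kind gave little. Rasgrf1, a Ras exchange factor gene with a region methylated on the paternal copy, was the only such window measured, with 11.6% over 5 cytosines in the BM embryo and 39.3% over 8 in phESCs (WT embryo 49.98%). It was lower in the BM embryo by 27.7 points, and by 34.8 points over the 5 cytosines with a value in both. Early diploid ESCs had 81.3% over 11 cytosines and early ahESCs 69.5% over 8, so the window did not read as intermediate in diploid ESCs. Late phESCs had 2 cytosines there, too few to give a level. The H19-Igf2 control region had 4 cytosines and the Dlk1-Dio3 region had 1 in the BM embryo and 0 in phESCs, too few to give a level. Ndn had 0.

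Somatic windows, which gain methylation after fertilisation under a control region, did not move as a group. Nesp had 61.8% over 103 cytosines in the BM embryo and 2.51% over 88 in phESCs, with 47.2% in the WT and 57.9% in the BP embryo. The Meg3 promoter, start of a non-coding RNA expressed from the maternal copy, had 60.6% in the BM embryo and 2.82% in phESCs, with 35.5% in WT and 76.3% in BP. Cdkn1c, a cell cycle inhibitor expressed from the maternal copy, had 37.8% in the BM embryo and 4.24% in phESCs. The H19 promoter, start of another maternally expressed RNA, had 11.8% over 10 cytosines in the BM embryo and 20.7% over 10 in phESCs, with 48.2% in WT and 73.4% in BP. So 3 of these 4 were higher in the BM embryo by 25 points and the H19 promoter was not. The labels do not name the deleted regions, so a value inside one would come from any remaining copy, and this was not tested.

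Promoters, from 1000 bp before to 500 bp after a placed start, were measured for 5269 genes with at least 6 cytosines that reached 20%. Of them 1712 (32.5%) were higher in the BM embryo and 17 (0.323%) lower. Where a gene has several annotated starts the one with most such cytosines was used, which favours methylated alternative starts. Over all CpGs of known context in the same windows, 1211 of 4760 (25.4%) were higher and 12 (0.252%) lower. The median promoter had 15.4% in the BM embryo and 9.02% in phESCs, a median difference of 5.07 points, against 0.408 points over all CpGs.

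Germline genes, many of which are known to be silenced by promoter methylation outside germ cells, were the list with the largest share of higher promoters. Of 30 listed genes 21 were measured and 18 were higher, beside 32.5% over all promoters, and over all CpGs 14 of 18 were, beside 25.4%. This list, like the others, was chosen with earlier results of these data known, so its shares are a description only. The median member had 85.1% in the BM embryo and 19.7% in phESCs. Among RNA-binding genes, Dazl had 87.2% in the BM embryo and 22.8% in phESCs, and Ddx4 had 80.5% in the BM embryo and 8.39% in phESCs. Genes of the piRNA pathway, which silences transposons in the germline, included Mael with 85.3% in the BM embryo and 16.5% in phESCs, Asz1 with 92.9% in the BM embryo and 35.2% in phESCs, and Piwil2 with 79.6% in the BM embryo and 19.7% in phESCs. Tdrd1, a tudor protein, had 79.6% in the BM embryo and 21.1% in phESCs. The synaptonemal complex genes, which join homologous chromosomes in meiosis, followed: Sycp1 had 92.3% in the BM embryo and 25.5% in phESCs, Sycp2 had 85.1% in the BM embryo and 16.2% in phESCs, and Sycp3 had 79.2% in the BM embryo and 25.3% in phESCs.

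The same list held its own variation. Fkbp6, a chaperone of the piRNA pathway, had 88.2% in the BM embryo and 17.8% in phESCs, and Tex101, a sperm membrane protein, had 91.2% in the BM embryo and 50.8% in phESCs. Rpl10l, a ribosomal protein gene used in the testis, had 96.4% in the BM embryo and 9.88% in phESCs. Of those higher, 3 stood lowest in the BM embryo. Hormad2 had 62.6% in the BM embryo and 2.71% in phESCs, Rnf17 had 63.5% in the BM embryo and 10.7% in phESCs, and Smc1b, a meiotic cohesin, had 58.0% in the BM embryo and 8.80% in phESCs. At Smc1b the difference lay outside the CpGs of known context, which had 4.55% in the BM embryo and 4.38% in phESCs over 10 cytosines. The 3 genes not past 25 points were Dpep3, with 96.2% in the BM embryo and 71.2% in phESCs, Tdrd9, with 80.7% in the BM embryo and 55.9% in phESCs, and Tex15, with 10.1% in the BM embryo and 12.7% in phESCs. Dpep3 and Tdrd9 were highly methylated in both, and Tex15 low in both. Early diploid ESCs were below the BM embryo at 20 of the 21 germline promoters, all but Tex15 (11.7%), though at Tdrd9 (80.3%) by under 1 point, and lower by far more at Ddx4 (11.1%), Mael (24.6%) and Slc25a31 (46.2%, beside 90.2% in the BM embryo and 22.7% in phESCs).

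Motif letters were counted in the 300-base RefSeq promoters on both strands. CACGTG, the E-box bound by the germline repressor complex of MGA and MAX, was found in 7 of the 13 germline promoters with values and in 10.6% of all 9525. TCCCGC, part of the E2F site, was in 8 of the 13 and in 44.1% of all. The 13 belong to the germline list, which was chosen with earlier results of these data known. Of the printed promoters Hormad1 held 2 E-boxes, and Ddx4, Slc25a31, Plagl1, Mcts2 and Fv1 1 each. TCCCGC was found 2 times in the Gnas start and once each in Ddx4, Slc25a31, Hormad1 and Plagl1. TGCCGC, the letters read by ZFP57, the factor that keeps imprints, was in 3 of the 13 germline promoters (23.1%) and in 24.5% of all promoters. It was found once each in Plagl1, Mcts2, Nnat and Abcc9, and not in the Gnas start or the germline promoters printed. Of the 231 higher promoters, 12.1% had CACGTG, above the share of all by under 2 points, and 17.3% had TCCCGC and 12.6% TGCCGC, both below the share of all. These are matches of letters in 300 bases and not binding sites.

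**Figure D5:**
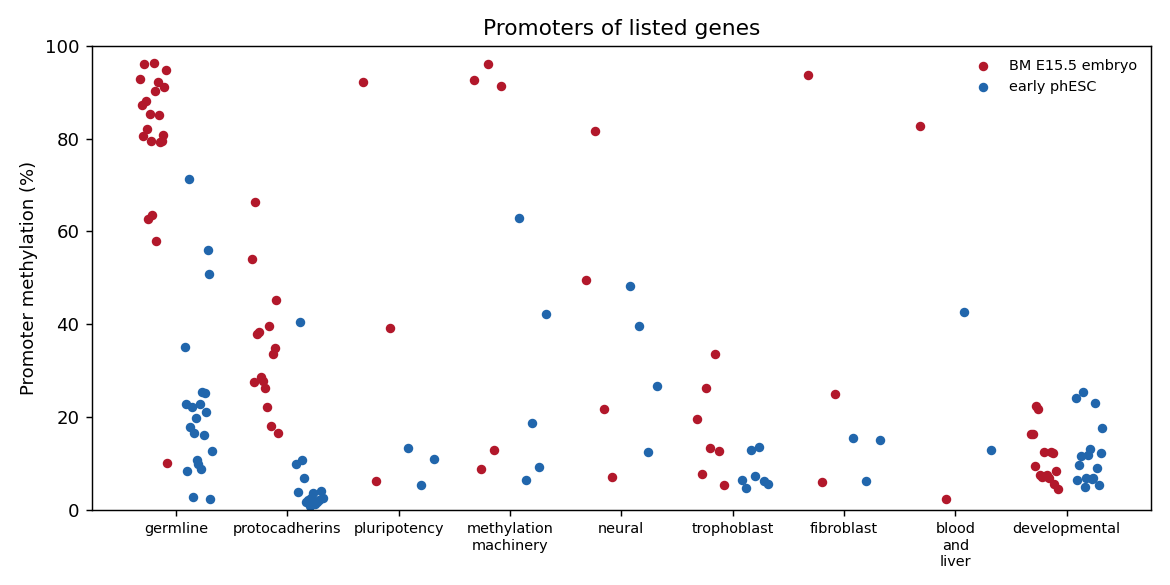
Promoter methylation (vertical axis, %) of each measured gene of 9 lists in the BM embryo and early phESC, 1 point per gene and library. Of the germline promoters 18 of 21 are higher in the embryo by at least 25 points, whereas the 16 developmental promoters stay under 26% in both.

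The other lists were mixed. Of 21 pluripotency genes 3 were measured and 2 were higher, beside 32.5% of all promoters: Sall4, a zinc finger factor, had 92.2% in the BM embryo and 13.3% in phESCs, Tdh, an enzyme of threonine use in mouse ESCs, had 39.2% in the BM embryo and 10.9% in phESCs, and Tbx3 had 6.13% in the BM embryo and 5.36% in phESCs. Over all CpGs Tdh had 3.23% in the BM embryo and 1.15% in phESCs. Over all listed cytosines, where another start of the gene can be the one used, Sall4 differed by 0.328 points. For the methylation machinery, 3 of 5 measured genes were higher at the start used, beside 32.5% of all promoters: Dnmt1, the maintenance methyltransferase, had 92.6% in the BM embryo and 62.9% in phESCs, Uhrf1, its partner, had 91.4% in the BM embryo and 42.2% in phESCs, and Tet1, which oxidises methylcytosine, had 96.1% in the BM embryo and 18.8% in phESCs over 6 cytosines. Their RefSeq starts were unmethylated in both, at 1.22% in the BM embryo and 1.30% in phESCs for Dnmt1, 1.05% in the embryo and 1.18% in phESCs for Uhrf1, and 2.37% in the embryo and 1.24% in phESCs for Tet1. Dnmt3a and Tet3 were not past 25 points.

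Lists of differentiated cell types gave single genes. None of 7 trophoblast promoters and none of 16 developmental regulator promoters was past 25 points in either direction, beside 32.5% of all promoters higher and 0.323% lower, the second list with a median difference of 0.0511 points. Gata2, Pax6 and Tbx5 were lower by 7.75, 10.5 and 13.1 points, where 25 was needed. Read against the same 32.5%, the higher ones were Fn1 of 3 fibroblast genes, Gfap of 4 neural genes and Hnf4a of 2 blood and liver genes. Fn1 (fibronectin) had 93.8% in the BM embryo and 15.4% in phESCs. Gfap, an astrocyte filament, had 81.6% in the BM embryo and 39.6% in phESCs. Hnf4a, a liver factor, had 82.7% in the BM embryo and 42.6% in phESCs. Over all listed cytosines another start of a gene can be the one used. There Fn1 differed by -0.0428 points, Gfap by 18.4 and Hnf4a by 8.23. Rbfox3, a neuronal splicing factor, had 7.0% in the BM embryo and 26.75% in phESCs, a difference short of 25 points. Over all CpGs of its window it had 5.69% in the BM embryo and 34.3% in phESCs over 8 cytosines, lower by more than 25 points. These marker promoters give methylation and not the share of a cell type.

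The clustered protocadherins, cell adhesion genes of neurons whose alternative promoters are chosen singly, were partly filled in the BM embryo. Of 48 listed promoters 15 were measured and 11 were higher, beside 32.5% of all promoters, and over all CpGs 7 of 15 were, beside 25.4%. The median was 33.5% in the BM embryo and 2.48% in phESCs, well below the germline promoters. Pcdha3 had the widest difference, with 44.2 points, and Pcdhgb7 the narrowest, with 14.0 points. Pcdhgb2 had 45.3% in the BM embryo and 4.02% in phESCs, and Pcdhga3 had 39.7% in the BM embryo and 3.50% in phESCs. Pcdhga8, Pcdhga9, Pcdhb1, Pcdhac1, Pcdhga1, Pcdhga10 and Pcdhga11 were higher by 25.4 to 32.7 points, with 26.2% to 38.2% in the BM embryo and 0.729% to 10.7% in phESCs. Over all its CpGs Pcdhga8 had 32.3% in the BM embryo and 1.62% in phESCs. Pcdha8 was the exception in the stem cell, with 66.4% in the BM embryo and 40.4% in phESCs.

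Over all promoters with at least 10 cytosines, listed or not, the 15 widest differences lay between a nearly filled embryo and a nearly empty stem cell. The first was Platr12, whose window overlaps Gpr1-Zdbf2. At the start used, Jade1 had 96.4% in the BM embryo and 2.45% in phESCs, with 95.6% in the WT embryo and 2.965% in diploid ESCs. Rad51c, a DNA repair gene, and Tex14, a protein of germ cell bridges, share a promoter that had 94.9% in the BM embryo and 2.35% in phESCs. Msh4, a meiotic mismatch repair homologue, had 89.0% in the BM embryo and 1.26% in phESCs. Mbd3, a subunit of the NuRD repressor complex, had 91.7% in the BM embryo and 3.12% in phESCs, and Mrps12, a mitochondrial ribosomal protein gene, had 92.8% in the BM embryo and 1.97% in phESCs.

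The rest of the 15 were C330024D21Rik, Ube2d2b, Fbxl19, Gtpbp6, Setd4, D230017M19Rik, Dhx16 and Rpl10l, at 91.0% to 96.5% in the BM embryo and 3.49% to 9.88% in phESCs. The WT embryo was within 10 points of the BM embryo at all 15. Several of these windows are not at the main start: the RefSeq start of Mrps12 had 2.46% in the BM embryo and 1.02% in phESCs, that of Fbxl19 had 2.58% in the embryo and 4.14% in phESCs, and that of Setd4 had 1.00% in the embryo and 0.756% in phESCs. Over all listed cytosines another start of a gene can be the one used. There Jade1, Mbd3, Gtpbp6, D230017M19Rik, Dhx16, Mrps12, Fbxl19 and Setd4 differed by at most 0.532 points in either direction. Platr12, Rad51c, Tex14, C330024D21Rik, Ube2d2b, Msh4 and Rpl10l stayed higher by more than 25 points there. On the main measure, just past the 25-point limit were Mterf4 (25.02), Sec24d (25.06) and Pank4 (25.09). Just short of it were Dpep3 (24.99), Trmt1 (24.96) and 5830428M24Rik (24.96).

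Lower promoters were rare and of 2 kinds. Fv1 and its neighbour Miip share a promoter with 3.61% in the BM embryo and 38.7% in early phESCs, and it was at 1.39% in diploid ESCs and 1.21% in late phESCs. Abcc9, with 9 cytosines, had 2.91% in the BM embryo and 50.9% in phESCs, against 6.74% in diploid ESCs. Otud7a, a deubiquitinase gene, had 2.45% in the BM embryo and 32.7% in phESCs, and 2810429I04Rik had 1.84% in the BM embryo and 31.5% in phESCs. At these the early phESC stood apart from the diploid ESC, which had 4.93% at Otud7a and 1.79% at 2810429I04Rik at early passage. The late diploid ESC was nearer to the early phESC at Fv1 and Miip (35.5%) and Abcc9 (34.9%), and had 16.4% at 2810429I04Rik and 12.02% at Otud7a. At others both early stem cells were high, as at Grin2d, an NMDA receptor subunit, with 7.01% in the BM embryo and 35.8% in phESCs (diploid ESC 48.2%), Col6a5, a collagen chain, with 17.1% in the BM embryo and 46.2% in phESCs (diploid ESC 41.8%), and Rimbp2, with 3.09% in the BM embryo and 31.8% in phESCs (diploid ESC 38.1%).

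The same second kind was seen at Selenoi, with 10.5% in the BM embryo and 36.2% in phESCs (diploid ESC 61%). Cck, which encodes cholecystokinin, had 4.32% in the BM embryo and 38.6% in phESCs over 9 cytosines (diploid ESC 66.4%). Hoxd4 had 25.3% in the BM embryo and 54.6% in phESCs over 8 (diploid ESC 76.9%). Over all CpGs Hoxd4 kept these values, but Cck had 3.23% in the BM embryo and 11.6% in phESCs over 36 cytosines. Selenoi had 3.62% in the BM embryo and 6.95% in phESCs over 32 cytosines on that measure. Ppfia3 was of the first kind, with 18.6% in the BM embryo and 46.9% in phESCs, against 12.7% in diploid ESCs. Against late phESCs none of the promoters measured there was lower in the BM embryo by 25 points. Among tiles, the 106 lower ones measured in 6 libraries averaged 12.5% in the BM embryo, 43.9% in phESCs, 13.2% in the WT embryo and 60.8% in diploid ESCs.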

How the data were processed

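Cytosine methylation by RRBS (MspI fragments of 150 to 300 bp, HiSeq 4000, per the labels' protocols) was deposited as 1 table of 12 libraries, 1 per group. Per the submitters' processing notes the authors used Trim Galore and Bismark 0.13.1 on build mm9. The deposited values are percent methylation from 0 to 100 per listed cytosine, with N for a missing value, and no read counts, so depth and its counting error are unknown.

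The table lists 8119606 positions without context. Context and gene positions came from matching GENCODE M21 exons and RefSeq promoters (GRCm38.p6) to the pattern of listed positions, with at least 8 positions matched exactly. No coordinate was converted between builds, although the result comes close to that. Of 440545 exons 19.2% were placed, of 32583 RefSeq promoters 40.3%, and at a false shift of 2017 bp 3 of 31560. Context became known at 33.6% of positions, with 12 conflicts. Windows were set at round distances from placed starts and need at least 5 cytosines that reached 20% in any library. Those at Mest, Slc38a4, Igf2r-Airn, Inpp5f, Impact, Cdh15, Rasgrf1, H19, Dlk1-Dio3 and Gpr1-Zdbf2 assume the same order of sequence in mm9. Each library was averaged over its own cytosines there.

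Tiles, promoters, windows and 9 gene lists were compared as differences between single libraries, without a test. Members and lists were chosen with earlier results of these data known. Genes named are all windows, listed genes past 25 points, and the 15 widest promoter differences each way with at least 10 cytosines, of which 9 were lower. The printed sequences, the lower promoters with fewer cytosines and the listed genes short of 25 points were chosen after their values were seen. Alternatives were all listed cytosines, CpGs outside CCGG, other minimums, tile sizes and limits, and late phESCs. The means over all CpGs of known context in promoter windows were added after seeing the data. The tile step was tested on simulated data. The analysis ran in Python 3.11.15 with pandas 2.3.3, NumPy 2.4.6 and Matplotlib 3.10.9.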

Additional observations from a re-analysis of the deposited data

Results flagged for a closer look

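At 6 places the BM embryo stood above the phESC by at least 25 points while the WT embryo stood below the diploid ESC by at least 25 points. They lie among the imprinted windows and the promoters. Of 5269 promoters measured in the pair, 1712 (32.5%) were higher in the BM embryo than in phESCs. Of 46183 tiles, 5.27% were lower in the WT embryo than in diploid ESCs. Each side is 1 library, and none of these differences between the pairs was tested. At the Kcnq1ot1 window the BM embryo was higher than the phESC by 59.5 points, and the WT embryo minus the diploid ESC came to -25.3 points, with 25.3% in the WT embryo. At Cdh15 the values were 43.6 and -34.1 points. The promoter of Cd63, a tetraspanin of the endosome, had 45.4 and -34.8 points, with 58.1% in the BM embryo, 12.7% in phESCs, 8.26% in the WT embryo and 43.1% in diploid ESCs. The promoter of Asic3, an acid-sensing channel, had 36.4 and -32.0 points, that of Hpcal1 30.7 and -27.2 points, and that of Upk3bl 27.7 and -41.1 points.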

How the results depend on the processing

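No paired analysis was possible because each group is 1 library and the labels give no replicate numbers. Depth is unknown and replicate spread cannot be given. The share of tiles higher was 5.50% over all listed cytosines, 29.4% over CpGs of known context outside CCGG and 34.4% at a limit of 40 points. Lower tiles numbered 2 (0.00142%), 19 (0.0753%) and 14 (0.0254%) under these settings, beside 140 (0.254%) as reported. With at least 3 cytosines there were 232 (0.254%) and with at least 10 there were 39 (0.218%), shares close to that reported. At 15 points there were 538 (0.977%), and against late phESCs 4 (0.0196%). The mean difference was 5.90 points over all listed cytosines and 7.86 over CpGs outside CCGG. The share of promoters higher was 1.24% over all listed cytosines and 54.6% against late phESCs. Lower promoters numbered 17 of 5269 as reported and 0 of 14624 over all listed cytosines. They numbered 9 of 2367 with at least 10 cytosines and 0 of 1774 against late phESCs. All 20 maternal windows kept their direction and call against late phESCs, over shared cytosines and by the median, as did the 19 with at least 10 cytosines. Over all listed cytosines, where another start of the gene can be the one used, 7 named promoters changed sign: Dhx16 (-0.190), Dnmt1 (-0.0898), Fbxl19 (-0.122), Fn1 (-0.0428), Uhrf1 (-0.00492), Otud7a (1.08) and Ppfia3 (0.119), and 37 others were no longer past 25 points. Against late phESCs Col6a5 (5.45), Fv1 and Miip (1.00 each) and Otud7a (0.221) changed sign. The late phESC library has few CCGG sites, and the cause of these changes was not tested.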

Other observations

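A search for tiles under 10% in phESCs, under 20% in the BP embryo, at 40% to 75% in the BM embryo and at 25% to 75% in the WT embryo found 30 tiles. Of these 23 lie in 16 of the maternal windows and 7 lie outside all windows. The 7 were chosen by these values, so the values are a description. The tile chr17:87524001-87525000, 17303 bp from the nearest placed start, of Socs5, had 54.8% in the BM embryo over 29 cytosines, 38.6% in the WT embryo, 57.3% in the BM E19.5 brain and 51.5% in the BM adult brain. The tile chr14:62303001-62304000, 2291 bp from a start of Dleu2, had 52.9% in the BM embryo and 36.1% in the WT embryo, and 72.5% in the BM E19.5 brain. The others are nearest to Mir219b, Id2, Ndufs6, Hes1 and Mir5046, with 41.6% to 50.1% in the BM embryo. Ndufs6 had 44.4% in the BM embryo and 2.14% in the BM E19.5 brain.

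The 19 maternal windows had means of 61.4% in the BM E19.5 brain (SD over windows 5.33), 58.5% in the BM adult brain (SD 14.2) and 60.2% in the BM embryo (SD 6.58). Single windows differed in the adult brain: Slc38a4 had 35.1% there and 72.7% in the BM embryo, Nnat 44.8% there and 62.5% in the embryo, Plagl1 78.1% there and 53.5% in the embryo, and Peg10-Sgce 78.9% there and 60.9% in the embryo. Snrpn-Snurf had 54.96% in the E19.5 brain and 25.8% in the adult brain, beside 41.3% in the embryo.

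Among the tiles highest above phESCs, several lay far from any placed start. The tile of 20 cytosines 50172 bp from the start of Zmynd8 had 96.3% in the BM embryo and 1.43% in phESCs, with 96.4% in the WT embryo and 1.45% in diploid ESCs. One tile of 78 cytosines, 3183 bp from the start of Repin1, had 96.0% in the BM embryo and 3.22% in phESCs. The tile nearest to Fcgr3 went the other way, with 4.58% in the BM embryo and 57.7% in phESCs over 8 cytosines, and 83.7% in the BP embryo. The tile nearest to Onecut1 had 11.8% in the BM embryo, 61.1% in early and 63.6% in late phESCs, and 85.7% in diploid ESCs.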
